A study of Mus musculus with 12 samples.

Results

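The 10 genes described here encode AP-1, BATF and BACH factors (Fos, Fosb, Fosl2, Jun, Junb, Jund, Batf, Batf3, Atf3 and Bach2). They were chosen by symbol from a count table of 55011 genes, and all 10 had a row in it. RNA was measured in regulatory T cells (Treg), a CD4 lineage that holds back immunity and depends on the factor Foxp3. The cells came from the spleen and lungs of male C57BL/6 mice aged 21 days and were sorted as DAPI-, TCRβ+, CD4+, GFP+ and CD25+, with 1000 cells per library and 3 libraries in each of 4 groups. Both WT groups carried Foxp3.ires.GFP, in which GFP is read from an unbroken Foxp3 gene. The genotype label of the spleen ∆Foxp3 group is ∆Foxp3.EGFP.iCre X R26.YFP and that of the lung ∆Foxp3 group is ∆Foxp3.ires.GFP, whereas the extraction protocol names ∆Foxp3.ires.GFP mice for both tissues, so in ∆Foxp3 cells the tissue and the allele cannot be told apart. Every group thus had a GFP reporter at the Foxp3 gene, and no group was treated. Spleens were dissociated mechanically. Lungs alone were perfused, enzyme-digested (collagenase IV and DNase I, 35 min in the warm) and depleted of other cells on magnets to enrich CD4 cells, so the tissue and its preparation cannot be told apart either. Whether each library is a different mouse is not in the labels, and p-values therefore measure the spread between these libraries.

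AP-1 is a family of dimers of basic leucine zipper proteins. A Fos protein pairs with a Jun protein and binds short palindromic DNA sites, and several members are immediate early genes, whose RNA appears within minutes of a stimulus or of stress such as tissue dissociation. BATF and BATF3 pair with Jun proteins, lack a transactivation domain and bind with IRF4 or IRF8 in lymphocytes, where BATF is known for its part in effector and tissue Treg. BACH2 is a repressor that competes for AP-1-like sites and is known for holding T cells in a resting state.

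Library totals ran from 3958892 to 9025150 counts, and a floor of 3 counts corresponded to 0.334 to 0.777 CPM (counts scaled to library size). Levels below are CPM scaled by the trimmed mean of M values (TMM). Libraries are given in the order 1, 2, 3 of their labels. Foxp3 was present at 991 to 1096 CPM in spleen WT, 114 to 227 in spleen ∆Foxp3, 1328 to 1418 in lung WT and 189 to 469 in lung ∆Foxp3 libraries (the deleted stretch was not named in the labels). The Treg and T cell markers Cd3e, Cd4, Trbc1, Trbc2, Foxp3, Il2ra, Ikzf2 and Ctla4 were detected in each of the 4 groups. An earlier account of these data named 3 libraries as standing apart (spleen WT 1, lung WT 1 and lung ∆Foxp3 3), and results that rest on them are given with and without them. Spleen WT 1 lay at 95.2 on the second principal component against 0.56 to 8.15 for the other spleen WT libraries, and lung WT 1 and lung ∆Foxp3 3 had the highest numbers of genes detected (22981 and 23649). In bulk RNA, fewer cells with a transcript and less of it per cell cannot be told apart.

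The members that were high in lung include immediate early genes, and the sequences just before their starts are shown because such genes are known to carry cAMP response element (CRE) or AP-1-like motifs close to the start. All 10 members matched a RefSeq promoter of GRCm38.p6, and in the 100 bases before each start both strands were searched for 3 motifs. These were TGACG (the core of a CRE), TGANTCA (the AP-1 site) and TGACNTCA (a CRE-like site, which also holds TGACG where N is G). The motif found is in capitals, and each line reads 5′ to 3′ on the strand of the gene.
Fos, chr12:85473790-85473889, plus strand: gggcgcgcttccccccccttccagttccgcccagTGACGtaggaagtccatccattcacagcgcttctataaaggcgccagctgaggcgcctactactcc
Fosb, chr7:19310046-19310145, minus strand: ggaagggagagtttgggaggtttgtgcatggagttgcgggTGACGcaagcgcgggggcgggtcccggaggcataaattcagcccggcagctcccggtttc
Jun, chr4:95052223-95052322, minus strand: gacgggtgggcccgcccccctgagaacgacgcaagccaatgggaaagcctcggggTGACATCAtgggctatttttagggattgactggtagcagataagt
Junb, chr8:84978749-84978848, minus strand: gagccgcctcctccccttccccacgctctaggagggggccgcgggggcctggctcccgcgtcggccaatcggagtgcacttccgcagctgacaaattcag
The motif lay 66 to 62 bases before the start in Fos, 60 to 56 in Fosb and 45 to 38 in Jun, and none of the 3 was in the Junb window. TGACG was also found in the windows of Batf and, on the opposite strand, Atf3. Fosl2, Jund, Batf3 and Bach2 had no match. For these and Atf3 the RefSeq window belongs to another start than the GENCODE gene start, at a distance of 671 bases for Fosl2, 1210 for Jund, 567 for Batf3, 34706 for Atf3 and 178631 for Bach2. Of 32851 promoters, 10.5% held TGACG in the same window, 2.73% held TGANTCA and 4.63% held TGACNTCA.

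In the GENCODE annotation of mm10, Fos spans chr12:85473890-85477273 and Batf chr12:85686669-85709087, both on the plus strand. Jun, at chr4:95049034-95052222 on the minus strand, is a gene of 1 exon. Bach2, at chr4:32238804-32586108 on the plus strand, has by far the longest span of the 10. Junb lies at chr8:84974484-84978718 (minus strand), Fosl2 at chr5:32135801-32157842 (plus strand) and Fosb at chr7:19302696-19310051 (minus strand). Batf3 lies at chr1:191097847-191108945 (plus strand), Atf3 at chr1:191170296-191218039 (minus strand) and Jund at chr8:70698949-70700616 (plus strand). Of the 1668 exon bases of Jund, 877 overlap Gm11175 on the opposite strand. No source used here gives the strand setting of the counting, so the Jund level is uncertain. Overlaps of the same kind covered 232 bases of Jun (Junos), 173 of Junb (Prdx2) and 537 of Bach2 (Bach2os).

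The effect of the genotype was read as ∆Foxp3 minus WT within each tissue. In both tissues Bach2 fell and Batf and Fosl2 rose, so 2 members were called higher and 1 lower in spleen, and 2 higher and 1 lower in lung. Of the 13295 genes tested with edgeR's quasi-likelihood test, 14.1% were called higher and 12.5% lower in spleen, and 9.74% higher and 10.5% lower in lung (Benjamini-Hochberg adjusted p under 0.05). Batf3 did not pass the low-count filter, and 9 of the 10 members were tested. With 9 members tested, counts this small lie near that background, and the results below concern single genes.

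Bach2 stood at 85.2, 82.4 and 80.5 CPM in spleen WT and at 26.9, 18.2 and 10.8 in spleen ∆Foxp3 libraries. Lung WT libraries had 88.5, 66.6 and 53.6 CPM, and lung ∆Foxp3 libraries had 19.8, 13.1 and 10.7. Every WT library was above every ∆Foxp3 library. The repressor was 4.48-fold lower in spleen (log2 fold change −2.16 ± 0.31 SE, adjusted p = 0.000149) and 4.78-fold lower in lung (−2.26 ± 0.31, adjusted p = 0.000239). The call held in 25 of 25 alternatives in each tissue, with log2 fold changes between −2.50 and −1.87 in spleen and between −2.50 and −1.84 in lung.

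Batf, the partner of Jun proteins in effector lymphocytes, was at 127, 116 and 113 CPM in spleen WT and at 201.5, 349.7 and 170.3 in spleen ∆Foxp3 libraries. The lung WT libraries stood at 106, 109.6 and 107 CPM, and the lung ∆Foxp3 libraries at 168, 204 and 233. The WT libraries were tightly grouped and the groups did not overlap, and spleen ∆Foxp3 2 was the highest library. Batf was 2.03-fold higher in spleen (log2 fold change 1.02 ± 0.22, adjusted p = 0.0032) and 1.88-fold higher in lung (0.91 ± 0.22, adjusted p = 0.00951). The lung call was lost without the 3 libraries that stand apart (log2 fold change 0.81, adjusted p = 0.0887). Tested against a fold of 1.5 rather than against no change, Batf was not called in spleen (adjusted p = 0.0631) or in lung (0.179).

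The balance of the pair set the genotypes apart in each library. Per kb of exon, Batf was 9.91 to 10.5 times Bach2 in spleen WT and 8.44 to 14.1 times in lung WT libraries. In ∆Foxp3 libraries the ratio was 53.0 to 136 in spleen and 59.9 to 154 in lung.

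**Figure D1:**
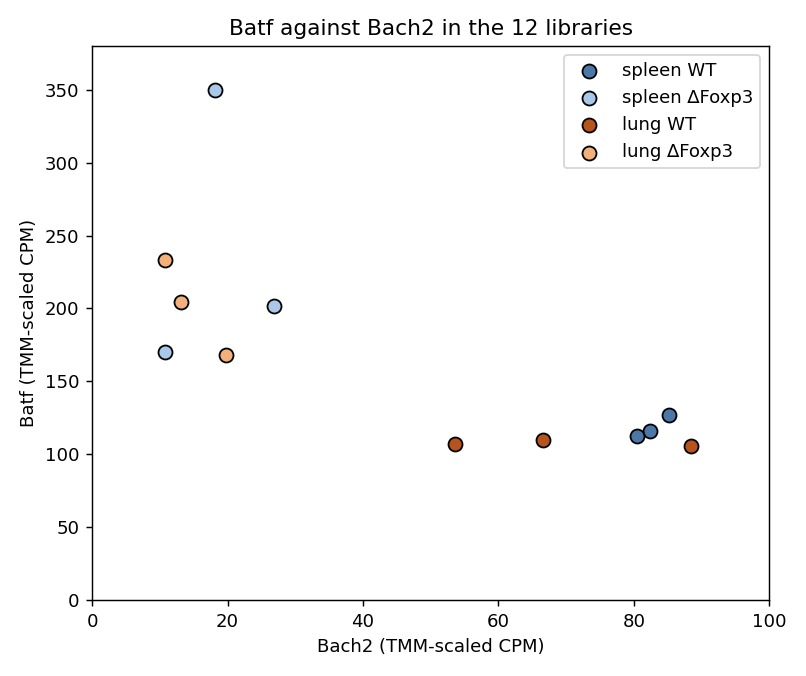
Batf (vertical axis) against Bach2 (horizontal axis), both in TMM-scaled CPM, with 1 point per library coloured by group. The 6 WT libraries lie at 53.6 to 88.5 CPM of Bach2 and the 6 ∆Foxp3 libraries at 10.7 to 26.9 CPM, with Batf higher in each ∆Foxp3 library than in any WT library.

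Batf3, the close relative of Batf, had 0 counts in all 6 WT libraries. It stood at 0, 2.16 and 2.58 CPM in spleen ∆Foxp3 and at 0.231, 0.198 and 0.67 in lung ∆Foxp3 libraries, or 27 and 5 counts in all. Set against a group floor of 3 counts, the pooled ∆Foxp3 counts gave ratios of 12.1 in spleen and 1.71 in lung. These ratios allow for no error in the pooled counts and no spread between libraries, so they are not lower limits. Without the low-count filter the adjusted p of Batf3 was 0.0149 in spleen and 0.357 in lung. The spleen counts came from 2 of the 3 libraries.

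Fosl2, which encodes the Fos family protein FRA2, was at 4.34, 3.75 and 2.16 CPM in spleen WT and at 6.78, 13.9 and 7.17 in spleen ∆Foxp3 libraries. Lung WT libraries had 25.4, 21.8 and 10.2 CPM, and lung ∆Foxp3 libraries had 55.8, 49.0 and 101. By median, spleen WT was lowest, then spleen ∆Foxp3, then lung WT, with lung ∆Foxp3 highest, and neighbours in that order did not overlap except that spleen ∆Foxp3 2 exceeded lung WT 3. The rise with genotype was 2.65-fold in spleen (log2 fold change 1.41 ± 0.44, adjusted p = 0.028) and 3.6-fold in lung (1.85 ± 0.40, adjusted p = 0.00472). The lung call held in 25 of 25 alternatives. The spleen call held in 20 of 25 and was lost without spleen WT 2 (adjusted p = 0.0594), spleen WT 3 (0.0981) or spleen ∆Foxp3 2 (0.136), with limma voom (0.206) and with only the groups compared in the fit (0.0954).

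**Figure D2:**
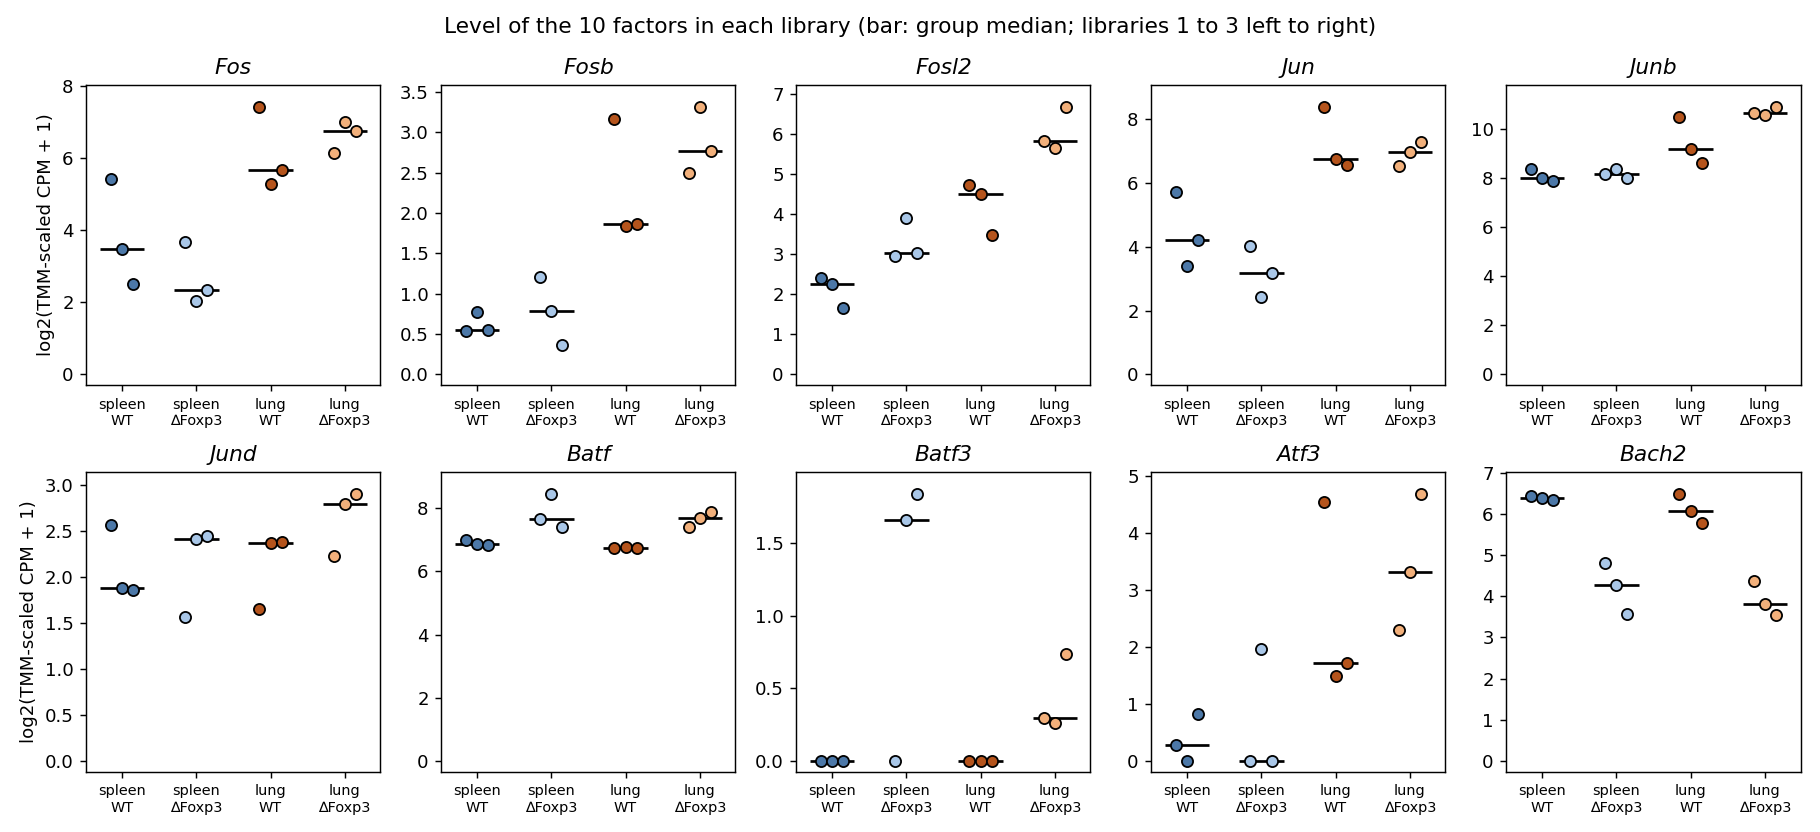
Level of each of the 10 members in each library, as log2 of TMM-scaled CPM plus 1 on the vertical axis, with 1 point per library in the order of its label number and a bar at the median of each group. Bach2 separates WT from ∆Foxp3 libraries, whereas Fosl2, Jun and Junb separate lung from spleen, apart from Fosl2 in spleen ∆Foxp3 2, which exceeds lung WT 3.

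Junb, a Jun protein with weaker activating capacity than c-Jun, was at 332, 257 and 236.5 CPM in spleen WT and at 283, 327 and 252 in spleen ∆Foxp3 libraries. The lung WT libraries stood at 1447, 585 and 393 CPM, and the lung ∆Foxp3 libraries at 1588, 1540 and 1896. The spleen groups overlapped (log2 fold change 0.06 ± 0.36, adjusted p = 0.921). The lung groups did not overlap, but lung WT 1 lay close to the ∆Foxp3 libraries, and the difference (1.05 ± 0.36, adjusted p = 0.058) missed the threshold. Without lung WT 1 the log2 fold change was 1.82 (adjusted p = 0.000204), without the 3 libraries that stand apart it was 1.71 (0.000385), and it was also called with limma voom (0.0061) and without robust dispersion (0.0417).

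Jun, which encodes c-Jun, was at 51.2, 9.47 and 17.6 CPM in spleen WT and at 15.3, 4.32 and 8.04 in spleen ∆Foxp3 libraries. Lung WT libraries had 330.4, 107.5 and 92.8 CPM, and lung ∆Foxp3 libraries had 91.6, 124 and 156. Its genotype groups overlapped in both tissues, and library 1 was the highest of each WT group. The log2 fold changes were −1.52 ± 0.70 in spleen (adjusted p = 0.133) and −0.51 ± 0.61 in lung (0.605). Without spleen WT 1 the spleen value was −0.52, and without lung WT 1 the lung value turned to 0.35. They were −0.52 (adjusted p = 0.402) and 0.14 (0.865) without the 3 libraries that stand apart.

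Fos, the founding immediate early gene of the family, was at 41.2, 10.0 and 4.63 CPM in spleen WT and at 11.6, 3.12 and 4.02 in spleen ∆Foxp3 libraries. The lung WT libraries stood at 168, 37.8 and 49.6 CPM, and the lung ∆Foxp3 libraries at 69.5, 125 and 107. As for Jun, library 1 was the highest of each WT group and the genotype groups overlapped. The log2 fold changes were −1.62 ± 0.87 in spleen (adjusted p = 0.202) and 0.24 ± 0.75 in lung (0.863). Without spleen WT 1 the spleen value was −0.195 (adjusted p = 0.89), and without lung WT 1 the lung value was 1.24 (0.311). They were −0.194 (0.833) and 1.18 (0.17) without the 3 libraries that stand apart.

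Fosb, a relative of Fos, was at 0.446 to 0.715 CPM in spleen WT and 0.287 to 1.31 in spleen ∆Foxp3 libraries, close to the floor. Its log2 fold changes with genotype were 0.47 ± 0.79 in spleen (adjusted p = 0.71) and 0.55 ± 0.64 in lung (0.591). Jund, the Jun protein of resting cells, was at 1.97 to 4.9 CPM in spleen and 2.15 to 6.48 in lung libraries, with values of 0.07 ± 0.53 (adjusted p = 0.942) and 0.61 ± 0.54 (0.457). For Atf3, a stress-induced repressor of the same protein class, they were 1.31 ± 1.66 (0.611) and 0.51 ± 1.15 (0.801). In lung, without the 3 libraries that stand apart, the values were 1.40 for Fosb (adjusted p = 0.273), 1.66 for Atf3 (0.474) and 0.24 for Jund (0.842), whose spleen value was then 0.47 (0.58).

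**Figure D3:**
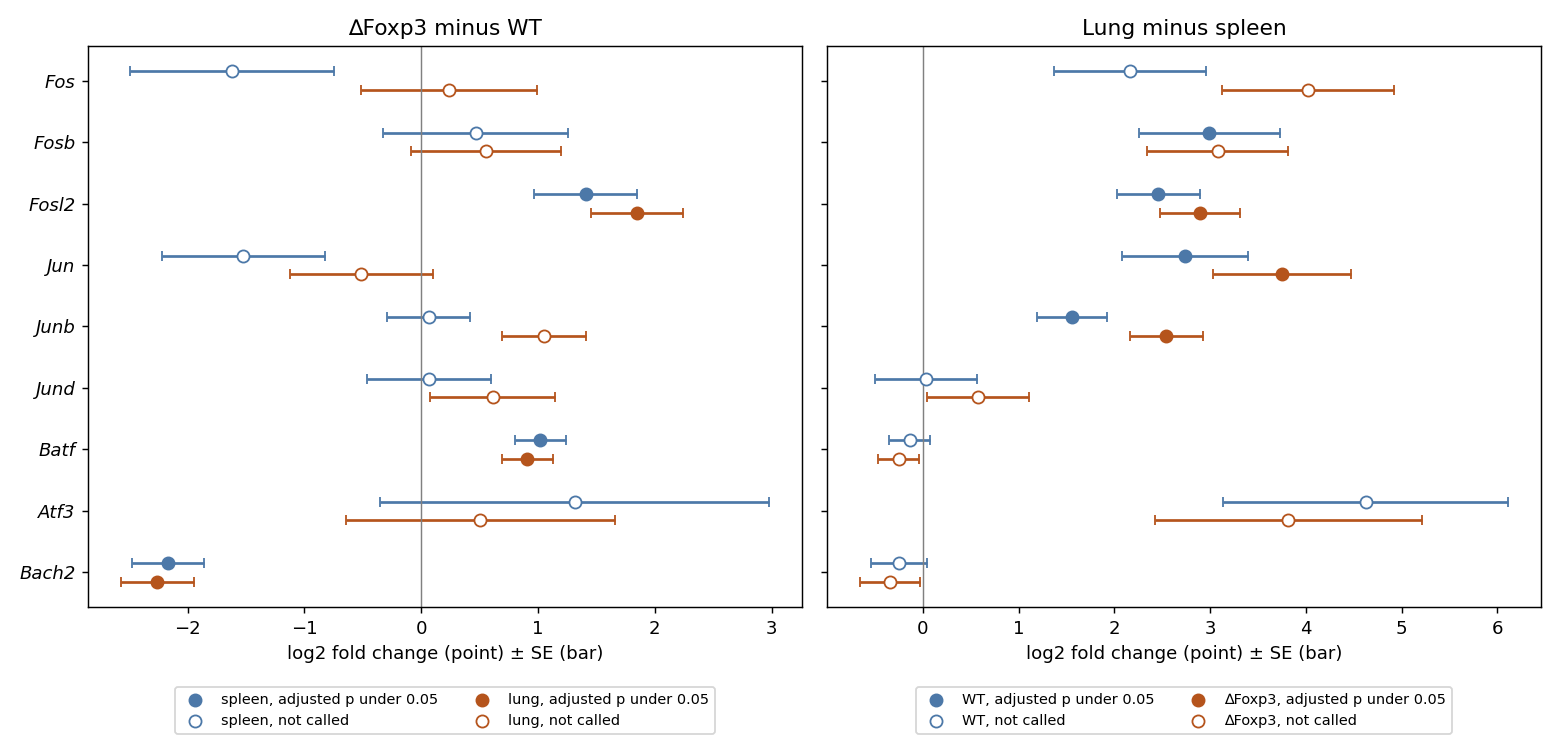
Log2 fold change (point) with its SE (bar) of the 9 tested members for ∆Foxp3 minus WT in spleen and lung (left) and for lung minus spleen in WT and ∆Foxp3 (right); filled points passed an adjusted p of 0.05. Bach2, Batf and Fosl2 are filled in both genotype comparisons, and Fosl2, Jun and Junb in both tissue comparisons.

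Of 20 genes known from tissue Treg and tied to BATF, 11 rose and 2 fell in spleen and 9 rose and 2 fell in lung, with medians of 0.88 and 0.60 on the log2 scale against −0.02 and −0.01 over all genes tested. The genotype counts of this and the following lists stand against 14.1% of all genes called higher and 12.5% lower in spleen. In lung these shares were 9.74% and 10.5%. Id2, an inhibitor of helix-loop-helix factors, rose in spleen (log2 fold change 3.83 ± 0.36, adjusted p = 1.16e-05) and in lung (2.86 ± 0.35, adjusted p = 0.000145). Tigit, a co-inhibitory receptor, rose in spleen (1.74 ± 0.18, adjusted p = 1.32e-05). In lung, the chemokine receptor gene Ccr8 (2.49 ± 0.28, adjusted p = 4.67e-05) and the nuclear receptor gene Pparg (2.88 ± 0.44, adjusted p = 0.000467) rose. Without the 3 libraries that stand apart, the counts were 11 higher and 2 lower in spleen and 8 higher and 0 lower in lung. That fit called 1922 of 13671 genes higher and 1430 lower in spleen, and 666 higher and 655 lower in lung. Its counts for this and the following lists stand against these numbers, not against the shares above.

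Of 10 genes known to be restrained by Bach2 in T cells, 8 rose and 0 fell in spleen and 7 rose and 0 fell in lung. Like the other lists, these genes were chosen with earlier results of these data known, and a link to Bach2 or Batf was not tested. Il1rl1, the receptor gene for IL-33, rose in spleen (log2 fold change 2.19 ± 0.32, adjusted p = 0.000245) and in lung (1.87 ± 0.31, adjusted p = 0.00109). Prdm1, which encodes the repressor BLIMP1, rose in spleen (1.10 ± 0.28, adjusted p = 0.0086). Il4 had 0 counts in the 6 WT libraries and stood at 19.0, 110.3 and 34.3 CPM in spleen ∆Foxp3 and at 154, 95.2 and 126 in lung ∆Foxp3 libraries. Without the 3 libraries that stand apart, 7 rose in spleen and 5 in lung.

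Of 12 genes of naive T cells that are kept with Bach2, 9 fell in spleen and 10 in lung, and 0 rose in either (9 and 8 fell without the 3 libraries that stand apart). The factor gene Foxo1 fell in spleen (log2 fold change −2.14 ± 0.19, adjusted p = 4.59e-06) and in lung (−2.36 ± 0.19, 3.76e-06). Il6ra, a receptor subunit for IL-6, fell in both (−3.34 ± 0.33, adjusted p = 1.16e-05, and −3.50 ± 0.33, 1.85e-05), and Id3, another helix-loop-helix inhibitor, did so too (−2.76 ± 0.17, 3.67e-07, and −1.72 ± 0.17, 1.96e-05). The lists share members, such as Prdm1 and Il1rl1 in the first and second.

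Of other basic leucine zipper factors, 3 of 18 tested (of 27 listed) were higher and 3 lower in spleen, and 1 higher and 1 lower in lung. Counts this small lie near the shares over all genes (14.1% higher and 12.5% lower in spleen, 9.74% and 10.5% in lung). The values below concern single genes. Maf, a factor of IL-10-producing T cells, rose in spleen (log2 fold change 1.78 ± 0.19, adjusted p = 1.3e-05) and in lung (1.00 ± 0.18, adjusted p = 0.00175). Atf7, of the ATF group, fell in both (−1.0 ± 0.15, adjusted p = 0.000178, and −0.74 ± 0.15, 0.00283). Nfil3, a repressor known from effector Treg, rose in spleen (3.93 ± 0.49, adjusted p = 4.55e-05). Without the 3 libraries that stand apart, 4 were higher and 1 lower in spleen, and 1 higher and 1 lower in lung.

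Upstream of AP-1, 2 of 24 genes of the MAP kinase route were higher and 5 lower in spleen, and 3 higher and 4 lower in lung. Such counts lie near the shares over all genes (14.1% higher and 12.5% lower in spleen, 9.74% and 10.5% in lung). The values below concern single genes. Mapk11, a p38 kinase, fell in spleen (log2 fold change −1.49 ± 0.22, adjusted p = 0.00018) and lung (−1.45 ± 0.22, 0.000428). Map2k3, a kinase that activates p38, rose in spleen (1.67 ± 0.24, adjusted p = 0.000183) and in lung (1.53 ± 0.24, 0.000643). Map3k1, further upstream, fell in both (−0.53 ± 0.14, adjusted p = 0.0139, and −0.75 ± 0.14, 0.00253). Without the 3 libraries that stand apart, 2 were higher and 4 lower in spleen and 1 higher and 2 lower in lung.

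Among 9 partner factors of BATF and Jun on composite sites, 1 was higher and 1 lower in each tissue. These counts too lie near the shares over all genes (14.1% higher and 12.5% lower in spleen, 9.74% and 10.5% in lung). Ets1 fell in both (log2 fold change −0.52 ± 0.11, adjusted p = 0.00378, and −0.44 ± 0.11, 0.0154). Its lung call was lost in 6 of 25 alternatives. Runx3 rose in spleen (1.22 ± 0.28, adjusted p = 0.00462) and Irf8 in lung (2.08 ± 0.35, adjusted p = 0.000876). Irf4, the known partner of BATF, was named after its values were seen; it was not called in spleen (1.30 ± 0.51, adjusted p = 0.0808) or in lung (1.08 ± 0.51, 0.158). Without the 3 libraries that stand apart, spleen had 1 higher and 1 lower, and lung 1 higher and 0 lower.

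Lung was compared with spleen within each genotype. In WT, 4 of the 9 tested members were called higher in lung (Fosl2, Fosb, Jun and Junb) and 0 lower, against 3.1% of all genes called higher and 1.03% lower. In ∆Foxp3, 3 were called higher (Fosl2, Jun and Junb) and 0 lower, against 0.549% and 0.173%. The WT split over all genes moved with the scaling: 75% of called genes were higher in lung with TMM and 58.8% with library totals alone, and the same 4 members were called higher under both.

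Fosl2 was 5.49-fold higher in lung in WT (log2 fold change 2.46 ± 0.44, adjusted p = 0.00496) and 7.44-fold higher in ∆Foxp3 (2.90 ± 0.42, adjusted p = 0.00403), a call that held in 25 of 25 alternatives in each genotype. By p-value it ranked 130 in WT and 16 in ∆Foxp3 among the genes tested. Junb was 2.94-fold higher in WT (1.56 ± 0.37, adjusted p = 0.0328) and 5.83-fold higher in ∆Foxp3 (2.54 ± 0.38, adjusted p = 0.00819), and each lung library exceeded each spleen library. The Junb call held in 18 of 25 alternatives in WT and in 22 of 25 in ∆Foxp3. It was lost in WT without spleen WT 1, 2 or 3 or spleen ∆Foxp3 2 (adjusted p 0.0788, 0.109, 0.093 and 0.0501) and in ∆Foxp3 without spleen ∆Foxp3 1 or 3 (0.0505 and 0.0596). The WT call was also lost without the low-count filter (0.169), with only the groups compared (0.121) and with limma voom (0.067). Without the filter the ∆Foxp3 call was lost too (0.0565). Without lung WT 1 the WT log2 fold change was 0.84 (adjusted p = 0.0359).

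Jun was 6.66-fold higher in lung in WT (log2 fold change 2.74 ± 0.66, adjusted p = 0.041) and 13.4-fold higher in ∆Foxp3 (3.75 ± 0.72, adjusted p = 0.0455), again with no overlap. These calls lay close to the threshold: 13 of 25 alternatives kept the first (adjusted p 0.00452 to 0.181) and 12 of 25 the second (0.000129 to 0.253). Among single libraries, the WT call was kept without spleen WT 1, spleen ∆Foxp3 1 or lung WT 3 and lost without any other, with a log2 fold change of 1.93 without lung WT 1 (adjusted p = 0.102). The ∆Foxp3 call was kept without spleen WT 1 or 2 or lung WT 1 or 3 and lost without any other. Without the 3 libraries that stand apart both were called (adjusted p = 0.00628 and 0.00192).

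Fosb stood at 7.97, 2.59 and 2.64 CPM in lung WT and at 4.62, 8.92 and 5.81 in lung ∆Foxp3 libraries, each above every spleen library. It was 7.95-fold higher in lung in WT (log2 fold change 2.99 ± 0.74, adjusted p = 0.0322), and the value in ∆Foxp3 was 3.08 ± 0.74 (adjusted p = 0.0783). The WT call held in 14 of the 24 alternatives in which Fosb was tested. It was lost without any 1 spleen WT library (adjusted p 0.0718 to 0.0764), without lung WT 1 (2.26, 0.134), without lung ∆Foxp3 2 or 3 (0.0583 and 0.0502) and without the 3 libraries that stand apart (2.14, 0.257). The same happened with limma voom (0.0893), with only the groups compared (0.0772) and with the replicate block (0.0543).

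Fos did not pass the test in either genotype, with log2 fold changes of 2.16 ± 0.79 in WT (adjusted p = 0.163) and 4.02 ± 0.90 in ∆Foxp3 (0.0886). Spleen WT 1, at 41.2 CPM, exceeded lung WT 2, and the ∆Foxp3 groups did not overlap. Without lung WT 1 the WT value was 1.21 (adjusted p = 0.434). Without spleen WT 1 both passed (3.58, adjusted p = 0.049, and 4.05, adjusted p = 0.032), as they did without the 3 libraries that stand apart (2.62, 0.0371, and 3.99, 0.00575). The ∆Foxp3 difference was called in 7 of 25 alternatives and the WT difference in 3 of 25. For ∆Foxp3 these included DESeq2 (adjusted p = 0.000966) and the edgeR fit with only the groups compared (0.00579). They also included the edgeR fits without robust dispersion (0.0279) and without lung WT 1 (0.0326).

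Atf3 was at 0.223, 0 and 0.771 CPM in spleen WT and at 0, 2.88 and 0 in spleen ∆Foxp3 libraries. Lung WT libraries had 22.2, 1.81 and 2.29 CPM, and lung ∆Foxp3 libraries had 3.92, 8.92 and 24.6. All lung libraries were above all spleen libraries of the same genotype, and lung WT 1 and lung ∆Foxp3 3 were the highest. The log2 fold changes, 4.62 ± 1.49 in WT (adjusted p = 0.107) and 3.82 ± 1.40 in ∆Foxp3 (0.398), did not pass the test. The WT value was 2.56 without lung WT 1 (adjusted p = 0.393) and 2.32 without the 3 libraries that stand apart (0.541), and the ∆Foxp3 value was 2.86 without lung ∆Foxp3 3 (0.753). Without spleen ∆Foxp3 2 it was 9.11 (0.102), a fitted value that is no bound because the other spleen ∆Foxp3 libraries had 0 counts. Batf and Bach2 showed no called difference between tissues: for Batf the values were −0.14 ± 0.22 (adjusted p = 0.783) and −0.25 ± 0.22 (0.847), and for Bach2 −0.25 ± 0.29 (0.69) and −0.34 ± 0.32 (0.87). Jund gave 0.03 ± 0.54 (adjusted p = 0.984) and 0.58 ± 0.53 (0.871).

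Other immediate early and dissociation genes went in both directions between tissues in WT. Of 32 tested, 6 were higher and 5 lower in lung in WT, and 8 higher and 0 lower in ∆Foxp3 (6 and 5, and 10 and 0, without the 3 libraries that stand apart). Over all genes, 3.1% were called higher and 1.03% lower in WT, and 0.549% and 0.173% in ∆Foxp3. In the fit without the 3 libraries, 342 of 13671 genes were called higher and 56 lower in WT, and 73 and 15 in ∆Foxp3. Klf6, a zinc finger factor, rose in both (1.52 ± 0.19, adjusted p = 0.000432, and 1.66 ± 0.19, 0.000515). The heat shock gene Hspa1a stood at 2.56, 0 and 0 CPM in spleen WT and 0.219, 0 and 0 in spleen ∆Foxp3, against 102 to 163 in lung WT and 228 to 676 in lung ∆Foxp3 libraries. In WT, Egr1 was lower in lung (log2 fold change −2.20 ± 0.24, adjusted p = 0.000169), as was Egr2, another zinc finger immediate early gene (−5.86 ± 0.54, 7.32e-05). How far preparation contributed to these values was not tested.

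With genotype, 1 of the 32 rose and 8 fell in spleen, and 7 rose and 3 fell in lung (2 and 6, and 9 and 0, without the 3 libraries that stand apart). Ier3, a survival-linked early gene, rose in spleen (log2 fold change 6.57 ± 0.83, adjusted p = 8.82e-05) and in lung (5.00 ± 0.77, 0.000706). Btg2, an antiproliferative gene, fell in spleen (−2.17 ± 0.23, adjusted p = 1.32e-05), as did Zfp36l1, which encodes an RNA decay factor (−1.73 ± 0.26, 0.000224). Egr2 rose in lung (6.23 ± 0.54, adjusted p = 7.58e-06), as did Egr1 (1.49 ± 0.24, 0.000634). The summed level of the 24 immediate early genes of the list was 4016, 3103 and 2762 CPM in spleen WT, 1804, 1895 and 1636 in spleen ∆Foxp3, 6863, 3395 and 2778 in lung WT and 4572, 5266 and 6011 in lung ∆Foxp3 libraries. Lung WT 1, which was the highest lung WT library in Fos, Fosb, Fosl2, Jun, Junb and Atf3, was also the highest in this sum. In this library the markers of neutrophils and mast cells (7 genes) summed to 31.7 CPM. Lung WT 2 and 3 had 1.56 and 2.29, and the other groups at most 4.37. Those of monocytes, macrophages and dendritic cells summed to 514 CPM against 252 and 282 in lung WT 2 and 3, while spleen WT 1 had 526. Lung WT 1 was not the highest lung WT library for erythroid and platelet genes (3537 against 4898 CPM in lung WT 2). The same held for lung epithelium (98.6 against 219.7 in lung WT 3) and for fibroblasts and smooth muscle (8.4 against 11.1 in lung WT 3). For B and plasma cells, NK and CD8 T cells and endothelium, lung WT 1 was the highest of its group by a small margin.

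Of the other lists, 2 of 18 basic leucine zipper genes were higher and 0 lower in lung in each genotype. In the fit without the 3 libraries that stand apart, 1 was higher in WT and 2 in ∆Foxp3, and 0 were lower. The counts of these lists stand against 3.1% of all genes called higher and 1.03% lower in WT. In ∆Foxp3 these shares were 0.549% and 0.173%. With counts this small, the values below concern single genes. Nfil3 rose in WT (3.52 ± 0.48, adjusted p = 0.000987). Crem, a cAMP-responsive factor, rose in WT (1.25 ± 0.26, adjusted p = 0.0147) and ∆Foxp3 (1.75 ± 0.27, 0.00694), and Atf4, a factor of the stress response, rose in ∆Foxp3 (0.89 ± 0.18, 0.0359, lost in 9 of 25 alternatives). No gene of the MAP kinase list (24) or the partner list (9) was called between tissues in either genotype, whereas 2 of the MAP kinase list in WT and 1 of the partner list in ∆Foxp3 were called higher without the 3 libraries that stand apart. Of the genes tied to BATF, 3 of 20 were higher in lung in WT, among them Il1rl1 (1.86 ± 0.32, adjusted p = 0.00496) and the co-stimulator Icos (1.17 ± 0.22, 0.00726), and 2 in ∆Foxp3, namely Il1rl1 (1.53 ± 0.31, adjusted p = 0.0377) and Ccr8 (1.24 ± 0.26, 0.0468), each lost in 13 of 25 alternatives. Of the genes restrained by Bach2, 1 of 10 was higher in WT (Il1rl1) and 2 in ∆Foxp3 (the same pair). In the fit without the 3 libraries that stand apart, 4 of the genes tied to BATF were higher in WT and 3 in ∆Foxp3. For the genes restrained by Bach2 these counts were 2 and 1, and 0 genes of either list were lower. Of the naive genes, Id3 was the 1 lower in lung, in WT (−2.0 ± 0.16, adjusted p = 2.68e-05) and in ∆Foxp3 (−0.96 ± 0.17, 0.0154). Its ∆Foxp3 call was lost in 6 of 25 alternatives, and without the 3 libraries that stand apart 1 naive gene was lower in WT and 0 in ∆Foxp3.

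Markers of other cells differed between the same groups. Erythroid and platelet genes (7 genes) summed to 1971 to 4898 CPM in lung WT, 1.19 to 408 in lung ∆Foxp3, 9.1 to 16.6 in spleen WT and 11.7 to 381 in spleen ∆Foxp3 libraries. Genes of the lung epithelium (6 genes) summed to 52.9 to 219.7 CPM in lung WT, 15.1 to 20.5 in lung ∆Foxp3, 34.5 to 44.6 in spleen WT and 7.67 to 18.7 in spleen ∆Foxp3 libraries. Those of monocytes, macrophages and dendritic cells (8 genes) summed to 252 to 514 CPM in lung WT and 161 to 236 in lung ∆Foxp3, against 355 to 526 and 257 to 462 in spleen. Of these 8 genes, Itgax was at 0 in all spleen WT libraries and Cd14 in all lung ∆Foxp3 libraries. The others had counts in every group, led by Ctss at a mean of 364 CPM in spleen WT and 178 in lung ∆Foxp3. Lung ∆Foxp3 libraries were below lung WT libraries in these 3 sums. They were also below them for B and plasma cells (134 to 261 against 1929 to 1970 CPM over 8 genes, mostly Ighm). The same held for endothelium (112.6 to 119 against 283 to 331 over 6 genes), a sum that was mostly Pecam1 in all 4 groups. Epcam led the lung epithelium sum in both spleen groups, Scgb1a1 in lung WT and Ager in lung ∆Foxp3. The opposite held for genes of fibroblasts and smooth muscle (7 genes, led by Fn1), at 20.8 to 52.5 CPM in lung ∆Foxp3 against 8.4 to 11.1 in lung WT and at 19.2 to 24.9 in spleen ∆Foxp3 against 4.47 to 6.35 in spleen WT libraries. For NK and CD8 T cells (6 genes) the lung groups overlapped, at 16.1 to 64.1 and 21.5 to 22.4 CPM. The part of these cells in the levels of the members was not tested.

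The make-up of the Jun and Fos families was compared per kb of exon. Junb made up 84.4 to 97.3% of the summed Jun, Junb and Jund level in the 12 libraries. The Jund part of this sum is uncertain, because the Jund exon overlaps Gm11175 and the strand setting of the counting is not known. Jun as a share of Jun and Junb was 11.7 to 14.6% in lung WT and 4.0 to 5.61% in lung ∆Foxp3 libraries, with no overlap, while it was 2.59 to 10.0% in spleen WT and 0.943 to 3.76% in spleen ∆Foxp3. Lung WT 1, high in both genes, had a share of 14.1%, between those of the other lung WT libraries. These shares were not tested.

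Fos made up 46.1 to 97.1% of the summed Fos, Fosb and Fosl2 level per kb. Fosl2 made up 2.49, 8.15 and 9.85% in spleen WT and 12, 49.9 and 29.7% in spleen ∆Foxp3 libraries, which did not overlap. In lung its share was 3.48, 12 and 4.67% in WT and 16.0, 8.48 and 18.3% in ∆Foxp3, which did.

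**Figure D4:**
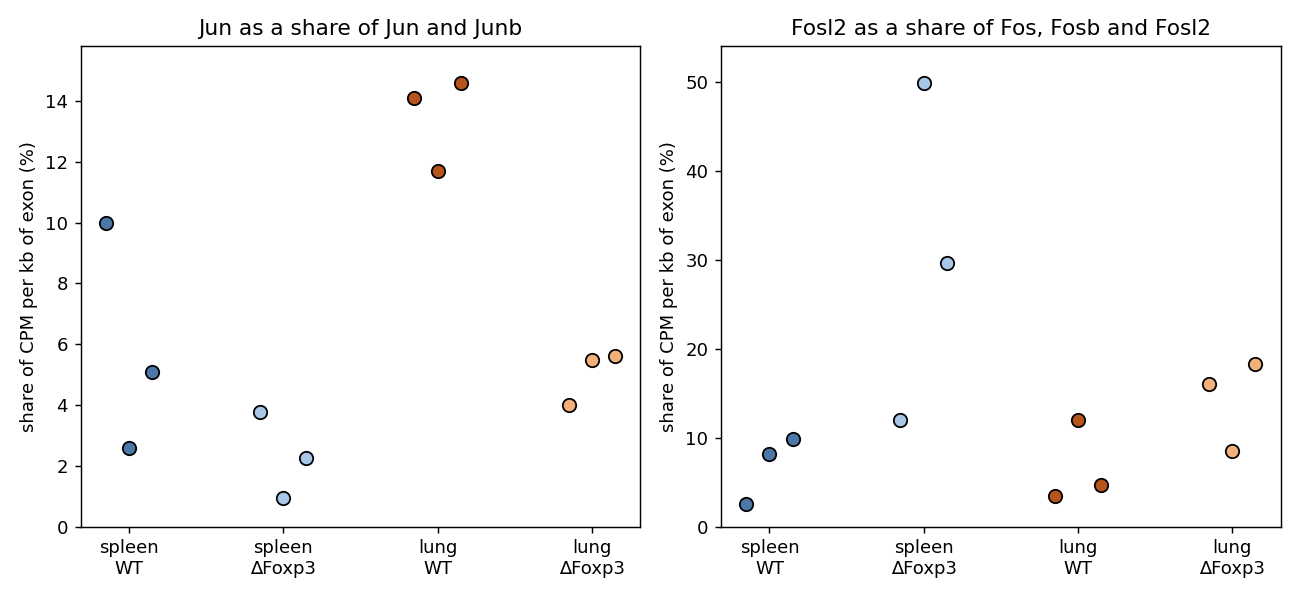
Jun as a share of the summed Jun and Junb level (left) and Fosl2 as a share of the summed Fos, Fosb and Fosl2 level (right), in percent of CPM per kb of exon, with 1 point per library in the order of its label number. The lung WT libraries lie at 11.7 to 14.6% on the left and the lung ∆Foxp3 libraries at 4.0 to 5.61%.

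Whether the genotype difference itself differed between tissues was tested as an interaction, the lung difference minus the spleen difference. Of the 9 tested members, 0 were called by edgeR, 0 had an unadjusted p under 0.05, and 0 were called by DESeq2 or limma voom, against 0.143% of all genes called higher and 0.782% lower by edgeR. For Bach2 the value was −0.09 ± 0.43 (adjusted p = 0.985), for Batf −0.11 ± 0.31 (0.971) and for Fosl2 0.44 ± 0.59 (0.917). For Junb it was 0.99 ± 0.51 (adjusted p = 0.607), which rose to 1.73 (0.0105) without lung WT 1 and to 1.45 (0.0322) without the 3 libraries that stand apart. For Fos it was 1.86 ± 1.15 (0.725) and for Jun 1.01 ± 0.92 (0.849). Without spleen WT 1 these were 0.47 and 0.042, without lung WT 1 they were 2.83 and 1.84, and without the 3 libraries that stand apart 1.38 and 0.66, with adjusted p of 0.393 or more for Fos and 0.549 or more for Jun.

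Genes with the most similar pattern over the 12 libraries were found by Pearson correlation of log2(CPM + 1) among the 8475 genes that averaged at least 10 CPM. These values describe libraries that share their groups and preparation, and most of each correlation comes from differences between groups. For Bach2 they were Il16, Treml2 and Cd27 (r = 0.984, 0.984 and 0.983), and for Batf they included Psmb2 and Rsl1d1 (0.98 and 0.974). For Fos they were Jun, Dusp1 and Dnajb1 (0.959, 0.958 and 0.919), and for Atf3 they were Junb, Dusp4 and Atf4 (0.89, 0.878 and 0.862). Dusp1 encodes a phosphatase that inactivates MAP kinases and Dnajb1 a heat shock co-chaperone. Dusp1 ran from 52.3 to 1675 CPM and Dnajb1 from 101 to 448 CPM over the 12 libraries.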

How the data were processed

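The authors deposited 1 table of raw, whole-number counts for 12 libraries of sorted Treg, made by Smart-seq2 with 18 cycles of amplification and paired reads of 38 nt, per the labels' protocols. Aligner and counter were STAR 2.7.3a and featureCounts (Subread 2.0.0), with mm10, per the submitters' processing notes. The sources used here give neither annotation nor strand setting. Reads carried no molecular identifiers, so a counting floor covers counting error alone.

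The test was that of edgeR 4.0.16 (R 4.3.3; quasi-likelihood F test, robust dispersion, TMM factors, its default low-count filter by group) in 1 fit of 4 groups with 5 contrasts. P-values were two-sided and adjusted by Benjamini-Hochberg over 13295 genes, with a threshold of 0.05. An SE is the absolute log2 fold change divided by the square root of F. For a gene at 0 counts in a group, the other group's pooled counts were set against 3 counts, with no allowance for their own error. The edgeR fit was run on simulated data for the spleen genotype contrast alone, with the same dispersion for every gene. The other contrasts and the other methods were not simulated.

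The 10 members and the 7 gene lists were chosen with earlier results of these data known. Named genes were the members, Foxp3, up to 3 called genes per list and contrast by adjusted p, and the 3 genes most correlated with Batf, Bach2, Fos and Atf3; for lists with 0 called genes, counts alone are given. Other settings tried were upper-quartile or RLE factors, plain library totals, no filter or 10 CPM in 3 libraries, DESeq2 1.42.0, limma 3.58.1 voom with quality weights, dispersion that is not robust, testing against a 1.5-fold change, only the groups compared, a replicate block, thinning to the smallest total, leaving out mitochondrial, ribosomal and receptor genes, and leaving out libraries singly or 3 together. The list genes were followed under these, and the list counts without the 3 libraries, as choices made after seeing the data. Ranges over 25 alternatives exclude the 1.5-fold test. One gene named by the rule on similar patterns is not reported here.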

Additional observations from a re-analysis of the deposited data

Results flagged for a closer look

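A few of the list genes had a genotype difference that differed between lung and spleen by the interaction test (edgeR, adjusted over all genes tested). Btg2, the antiproliferative early gene, differed by 2.98 ± 0.32 on the log2 scale (adjusted p = 0.000496), at 633 to 744 CPM in spleen WT, 127 to 166 in spleen ∆Foxp3, 191 to 359 in lung WT and 389 to 547 in lung ∆Foxp3 libraries. Egr2 differed by 5.98 ± 0.66 (adjusted p = 0.000758), with lung WT libraries at 1.72, 0 and 0.879 CPM and all others between 38.1 and 102. Egr1 differed by 2.12 ± 0.32 (adjusted p = 0.006). Ccr8 differed by 1.71 ± 0.38 (adjusted p = 0.0486), lost in 13 of 24 alternatives. Nfil3 differed by −3.19 ± 0.62 (adjusted p = 0.0267), lost in 9 of 24, with spleen WT libraries at 0.668 to 2.47 CPM and all others between 11.8 and 33.6.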

How the results depend on the processing

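Of 1143 values of the members under the alternatives, 1023 kept their direction and their side of the threshold, 58 lost a call, 19 gained one and 43 changed sign. Of the 1495 values of list genes, 1418 kept their call, 77 lost it and 0 changed sign. Members called in spleen ∆Foxp3 minus WT fell from 3 to 1 in the test against a fold of 1.5. In WT lung minus spleen they fell from 4 to 2 without the low-count filter or with limma voom, and to 1 in the test against a fold or with only the groups compared. In ∆Foxp3 lung minus spleen they went from 3 to 1 without the filter and to 5 with DESeq2, and in the interaction from 0 to 1 without the 3 libraries that stand apart. Leaving out 1 library gave 1 to 4 in WT lung minus spleen, 1 to 5 in ∆Foxp3 and 0 to 1 in the interaction.

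All genes called numbered 3540 in spleen (1648 against a fold of 1.5, 2287 with only the groups compared) and 2686 in lung (4598 with limma voom, 932 against a fold, 1321 without the 3 libraries, 1457 to 3364 without 1 library). They numbered 549 in WT lung minus spleen (957 without the filter, 1046 with DESeq2 and also with voom, 235 against a fold, 281 to 693 without 1 library). They numbered 96 in ∆Foxp3 lung minus spleen (292, 235, 228 and 38 in the same order, and 42 to 152). The interaction gave 123 (363, 304, 190 and 50, and 36 to 178). The share of WT tissue calls that were higher in lung was 75%, against 62% with voom and 85.9% without the 3 libraries.

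The values that changed sign were not called in any of these fits. In spleen ∆Foxp3 minus WT they were Junb with upper-quartile factors (−0.007; −0.037 to 0.26 without 1 library), Jund with voom (−0.088) and Atf3 with voom (−0.35). Without 1 library Fosb ran from −0.13 to 0.91, Jund from −0.12 to 0.47 and Atf3 from −3.97 to 2.50. In lung, Jun was 0.14 without the 3 libraries, and without 1 library Fos ran from −0.077 to 1.24, Jun from −0.79 to 0.35 and Atf3 from −0.41 to 2.63. In WT lung minus spleen, Jund was −0.006 with upper-quartile factors and −0.032 with library totals (−0.12 to 0.42 without 1 library). In ∆Foxp3, Batf ran from −0.45 to 0.12 and Bach2 from −0.64 to 0.047. In the interaction, Fosb was −0.30 when thinned (−0.36 to 0.83 without 1 library), and Atf3 was 1.86 with voom and 0.55 without the 3 libraries (−1.99 to 4.49). Jund was −0.24 and Bach2 0.26 without the 3 libraries, and without 1 library Bach2 ran from −0.39 to 0.28 and Batf from −0.31 to 0.26. The causes were not tested.

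Libraries of the same number did not deviate together (correlations −0.05 to 0.08 between groups), so the replicate number was not used to pair them. With the replicate block, Jund turned to −0.046 in spleen and to −0.07 in WT lung minus spleen, and the interaction called 74 genes. Junb in lung (log2 fold change 1.20, adjusted p = 0.0265) and Fos in WT (2.30, 0.0474) and ∆Foxp3 (4.45, 0.00934) tissue comparisons became called, and Fosb in WT (2.90, 0.0543) was lost. Low counts limit Fosb, Jund, Batf3 and Atf3.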
